A study of Caenorhabditis elegans with 4 samples.

Results

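The regions described here are the 637 combined-list peaks that lie on chromosome IV of Caenorhabditis elegans, out of 3766 in the whole series. They come from a ChIP-seq experiment that mapped where a GFP-tagged homeodomain transcription factor sits on chromatin. The members were taken by chromosome alone, with no use of their q-values. Support in the replicates was read from the 476 chromosome IV peaks of ChIP replicate 1 (of 2778) and the 171 of ChIP replicate 2 (of 906).

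The labels give 2 ChIP and 2 input samples, all from L4 hermaphrodites of strain OP241 kept at 20 °C, which carries the unc119(ed3) mutation and the transgene wgIs241, in which ceh-38 is fused to TY1, EGFP and FLAG tags and a unc119 copy is included. Input chromatin from the same strain is therefore the control, and no untagged animals appear among the groups. The transgene was introduced by particle bombardment, and whole worms were crosslinked, so each peak pools all cell types of the animal. The sample titles name CEH-28 as the factor, whereas strain, genotype and design name ceh-38, and the protein is called the tagged factor here. The gene table used here places ceh-38 on chromosome II and ceh-28 on X, so neither gene is on IV. The description fields call the ChIP samples input and the input samples ChIP, and titles and source names, which go the other way, were followed. Nothing in the labels says that the replicates came from separate cultures.

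As background, CEH-38 is one of the ONECUT proteins, which pair a cut domain with a homeodomain, and the cut homeobox genes of this worm act together in the expression of genes shared by all neurons. CEH-28 is an NK-2 type homeodomain protein of a pharyngeal neuron. Worm autosomes have a central part rich in conserved genes and poor in recombination, flanked by arms that recombine often and hold more repeats. Chromosome IV is also the home of the 21U-RNA genes, whose products are the piRNAs that guide the Argonaute PRG-1 in the germline. In the gene table, 14714 of the 15363 piRNA genes of the genome (95.8%) are on IV. Those genes lie mainly in 2 broad domains, taken here in rounded form as 4.5 to 7 Mb and the 3.5 Mb that end at 17 Mb.

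On chromosome IV, peaks of the tagged factor were densest near the left end, where most of the strongest combined-list regions seen in both replicates also lay, and weaker, narrower peaks were spread along the whole length. Each peak has an interval on build WS180 and a q-value, the p-value of the peak caller after correction for multiple testing; it is given below as q or as −log10 q, so that a larger −log10 q means stronger evidence against the control. Chromosome IV peaks of the combined list had a median width of 341 bp (quartiles 233 and 528 bp) and a median −log10 q of 6.22 (4.39 and 11.9). They covered 303 kb, or 1.75% of the span of 17.3 Mb between base 1 and the end of the last peak. In replicate 1, the median width on IV was 343.5 bp and the median −log10 q was 6.30. In replicate 2, whose list is shorter, the medians were 405 bp and 7.07. Read counts were not used here, so the depth behind any peak is unknown.

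The strongest combined-list regions on IV carried very small q-values in both replicates; some stronger replicate regions, absent from that list, are described further on. The first, at 847467 to 850344 (2878 bp), had q = 3.51e-244 in replicate 1, 2.56e-101 in replicate 2 and 1.43e-315 in the combined list. It was also the widest combined-list peak of the chromosome and stood 2nd by q in the whole combined list. The region at 1433943 to 1435996 (2054 bp) had q = 3.26e-194 in replicate 1, 3.60e-96 in replicate 2 and 2.69e-256 in the combined list. The region at 2235643 to 2238209 (2567 bp), with only 2 wider on IV, had q = 6.82e-161 in replicate 1, 1.96e-75 in replicate 2 and 4.78e-248 in the combined list. These 3 regions lie in the first 4 Mb, called the left arm here.

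The next region was the only one in the centre among the 12 best by combined q that both replicates also listed. The centre is the part of the chromosome between 4 and 13 Mb. The region lies at 4317255 to 4319231 (1977 bp), with q = 1.68e-208 in replicate 1, 7.24e-61 in replicate 2 and 1.35e-247 in the combined list. The right arm, beyond 13 Mb, likewise held a single one of the 12, at 16644552 to 16646445 (1894 bp), with q = 4.95e-171 in replicate 1, 3.75e-65 in replicate 2 and 7.87e-216 in the combined list. A smaller combined-list peak of 541 bp, at 16643701 to 16644241 (q = 1.87e-109, chosen after its values were seen), ended 310 bp to its left.

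The other 7 of the 12 were again on the left arm. Their combined q-values were 9.15e-236 at 983031 to 984702, 1.00e-228 at 2253026 to 2254872 and 3.44e-206 at 1442554 to 1445271. They were followed by 6.48e-190 at 977152 to 979501, 1.43e-189 at 1969119 to 1971466, 1.52e-181 at 972344 to 974256 and 2.49e-172 at 2395072 to 2396586. The 12 regions thus split into 10 on the left arm, 1 in the centre and 1 on the right arm, with widths from 1515 to 2878 bp (median 2015.5 bp). The centre region starts at 4317255, close to the rounded bound of 4 Mb, so its placing depends on that bound. All stood within the first 49 places of the whole combined list and the first 91 of replicate 1. In replicate 2 they held places 33 to 135 of the whole list, behind stronger regions described further on.

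Some of these regions were single peaks in the combined list and several in a replicate. The clearest case was 1969119 to 1971466. Replicate 1 listed a piece at 1969258 to 1970343 (q = 3.12e-84) and another at 1970596 to 1971462 (q = 1.19e-45). Replicate 2 listed 1969262 to 1970288 (q = 2.11e-29) and 1970669 to 1971415 (q = 4.61e-24). The same 2 pieces were thus seen in each replicate, while the combined list joined them. Over all of IV, 9 combined-list peaks spanned 2 or more peaks of replicate 1 and 16 spanned 2 or more of replicate 2. Splitting in the other direction was seen for 2 replicate 1 peaks and 0 replicate 2 peaks.

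The peaks of IV were densest on the left arm in each list. The combined list held 247 peaks there, or 61.8 per Mb (exact 95% Poisson interval 54.3 to 70), against 273 in the centre, or 30.3 per Mb (26.8 to 34.2), and 117 on the right arm, or 27.0 per Mb (22.3 to 32.4). Left-arm density was 2.11 times that of the rest of IV (exact 95% interval of the ratio 1.79 to 2.48). The ratio was 2.59 (2.15 to 3.11) in replicate 1, with 52 peaks per Mb on the left arm and 20.1 elsewhere. It was 4.58 (3.35 to 6.30) in replicate 2, with 24.8 peaks per Mb on the left arm and 5.4 elsewhere. The centre and the right arm were closer in density. The ratio of centre to right arm was 1.12 (0.902 to 1.41) in the combined list, 1.0 (0.772 to 1.31) in replicate 1 and 1.17 (0.691 to 2.05) in replicate 2, and each interval includes 1. These intervals, like those that follow, treat peaks as independent and cover counting error only; peaks lie in groups, so the intervals are too narrow, and with 2 samples of 1 kind they say nothing of the spread between cultures.

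**Figure D1:**
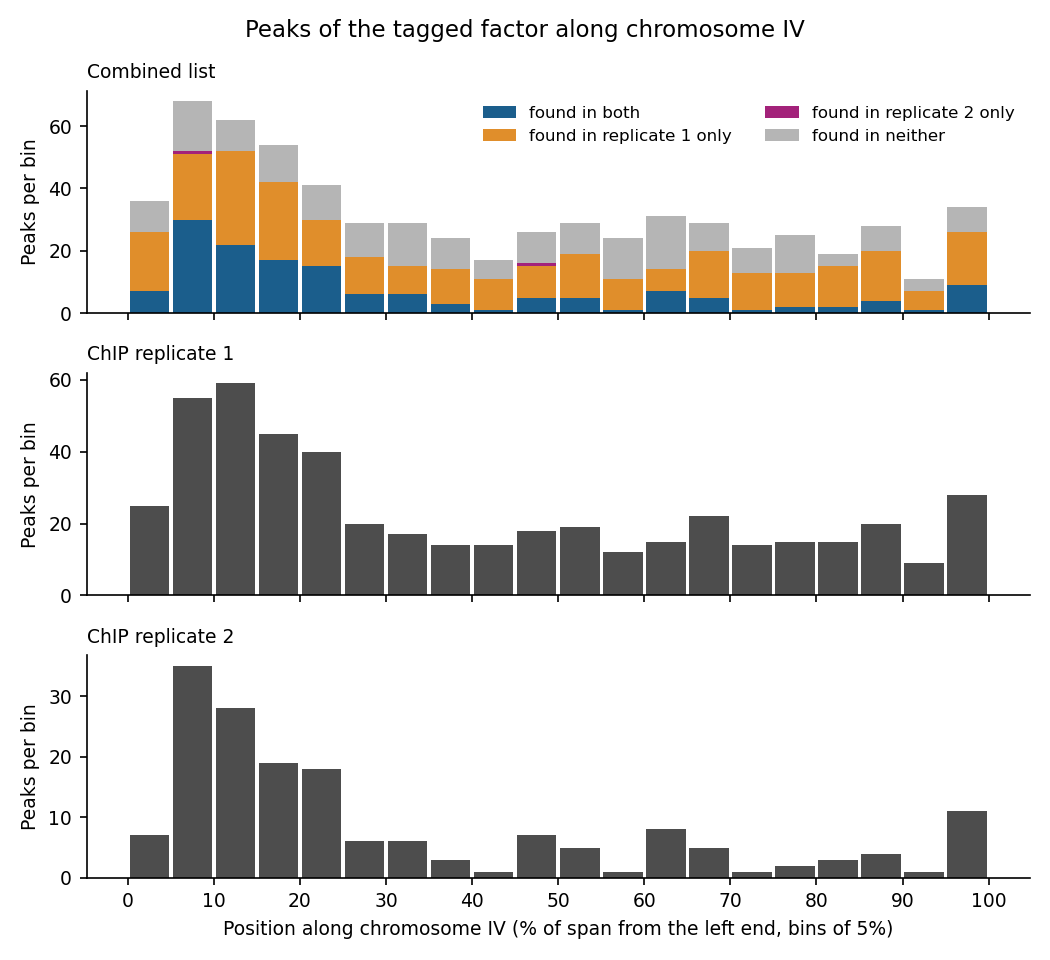
Number of peaks per bin of 5% of the chromosome IV span, from the left end to the right, in the combined list (top, coloured by the replicates in which a peak was found), ChIP replicate 1 (middle) and ChIP replicate 2 (bottom). The bin from 5 to 10% holds 68, 55 and 35 peaks in the 3 lists, and the last bin stands above its neighbour with 34, 28 and 11 peaks against 11, 9 and 1.

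Seen in steps of 1 Mb, the high density spanned several bins and was highest from 1 to 3 Mb. The bins from 1 to 2 Mb and from 2 to 3 Mb held 74 and 73 combined-list peaks, with 63 and 68 in replicate 1 and 35 and 32 in replicate 2. The first Mb held 47 and the fourth 53. From 4 to 5 Mb, past the left-arm bound, the count was 38. Replicates 1 and 2 had 34 and 14 peaks in that bin, beside 33 and 13 in the first Mb. Across the 17 complete bins the median was 33 peaks, and the lowest count was 20, between 9 and 10 Mb, where replicate 1 had 9 and replicate 2 had 2. Even that bin contained a region found in both replicates, at 9150080 to 9151412 (q = 3.44e-57). The best peak of each of the 18 bins, the partial last one included, was found in both replicates. Their −log10 q ran from 21.4, between 15 and 16 Mb, to 315 in the first bin. The longest stretch without a combined-list peak measured 308 kb, from 7402461 to 7710742, and held 3 peaks of replicate 1 and 0 of replicate 2.

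Toward the right end the density climbed again over a short distance. The last 5% of the span held 34 combined-list peaks, 9 of them found in both replicates, against 11 and 1 in the 5% before it. Replicate 1 had 28 against 9 there, and replicate 2 had 11 against 1. This stretch includes the best right-arm region named above and a group of 5 peaks at 16995992 to 17011148, whose best peak had q = 4.06e-70. These bins were compared after the counts had been seen.

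The 21U-RNA domains showed no excess of peaks beyond counting error. Together they held 157 combined-list peaks in 6 Mb, or 26.2 per Mb (22.2 to 30.6), against 31.8 per Mb (27.8 to 36.1) in the rest of IV right of 4 Mb. Domains over rest gave a ratio of 0.824 (0.668 to 1.01) in the combined list. Replicate 1 gave 0.825 (0.640 to 1.06) and replicate 2 gave 0.873 (0.528 to 1.43), so each interval included 1. The first domain held 70 peaks (28 per Mb) and the second 87 (24.9 per Mb). Among them, 28 (17.8%, 95% Wilson interval 12.6 to 24.6%) were found in both replicates, against 36 of 233 (15.5%, 11.4 to 20.6%) in the rest right of 4 Mb. The best peak of the first domain was at 5684570 to 5685751 (q = 5.86e-156), and that of the second was the right-arm region at 16644552. Peaks were not assigned to single piRNA genes, since the gene table is on another build.

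Support in the replicates followed the combined q-value closely. By its name, the combined list draws on the same 2 ChIP samples, so these 2 measures are not independent and part of the link is built in. Peaks are counted as found in another list when they overlap one of its peaks by at least 1 bp. Of the 637 combined-list peaks on IV, 149 were found in both replicates (23.4%, 20.3 to 26.8%), beside 21.2% over the whole series. Another 283 (44.4%, 40.6 to 48.3%) were found in replicate 1 only, 2 in replicate 2 only, and 203 (31.9%, 28.4 to 35.6%) in neither, beside 32.9% over the whole series. The share found in both was capped by the length of the replicate 2 list, which held 171 peaks on IV. Of these, 0 spanned 2 or more combined-list peaks. Ranked by q on the chromosome, 131 of the best 160 peaks were found in both (81.9%, 75.2 to 87.1%). Of the next 159, 17 were (10.7%, 6.78 to 16%), then 1 of 159 (0.629%, 0.111 to 3.48%), and 0 of the 159 weakest (interval up to 2.36%). The 69 best combined-list peaks of IV were all found in both replicates.

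The first exception, in place 70, was at 1496942 to 1497865 (924 bp, q = 6.23e-26), found in replicate 1 only with q = 1.16e-19. The weakest peak found in both was at 13549246 to 13549637 (392 bp, q = 2.35e-06), in place 353. The best peak found in neither was at 7084744 to 7085357 (614 bp, q = 1.08e-11), in place 171. The supported and unsupported peaks therefore overlapped in q between places 70 and 353. These 3 peaks were chosen after their values were seen.

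Width went with support as well. Wider peaks meet the 1 bp overlap rule more easily, so part of this link is built in. Median width also fell from 800 bp in the best 160 combined-list peaks to 200 bp in the 159 weakest. Peaks found in both replicates had a median of 748 bp (quartiles 459 and 1294 bp), those found in replicate 1 only 335 bp (253.5 and 492.5 bp), and those found in neither 232 bp (181 and 308 bp). The first median was 3.22 times the last, and the quartiles of these 2 classes did not overlap. Among peaks on the stronger side of the list's median q, the ratio was 1.75. The median −log10 q of the 3 classes was 23.2, 6.68 and 4.22. Both peaks found in replicate 2 only were narrow and weak. One, at 1094260 to 1094463 (204 bp), had q = 1.22e-05 in replicate 2 and 2.11e-05 in the combined list. The other, at 8023550 to 8023787 (238 bp), had q = 1.62e-04 in replicate 2 and 3.23e-06 in the combined list.

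**Figure D2:**
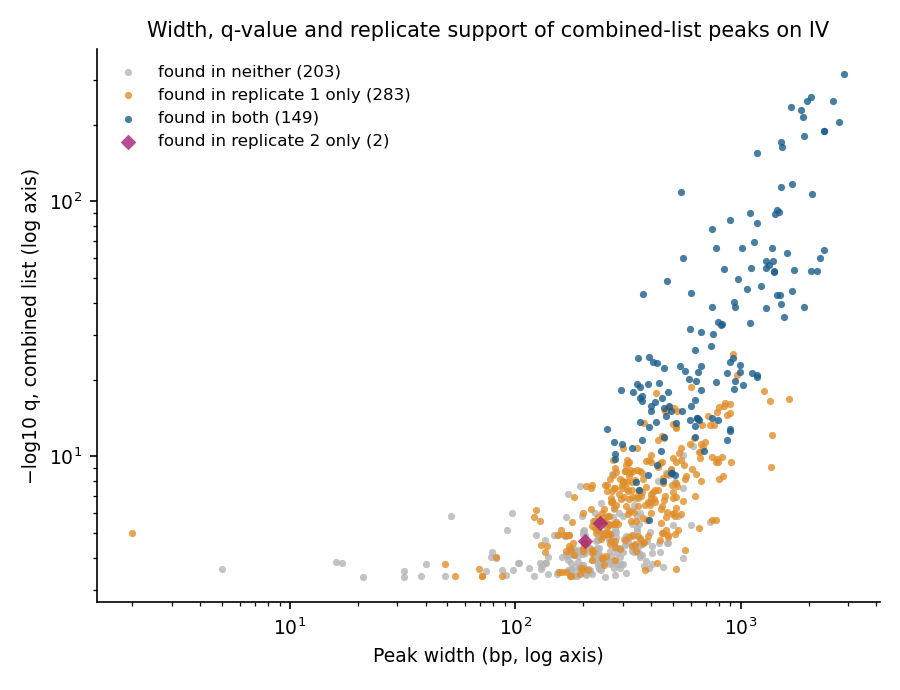
Width (x axis, bp, log scale) against −log10 q (y axis, log scale) for the 637 combined-list peaks of chromosome IV, coloured by the replicates in which each was found. The 149 peaks found in both replicates fill the wide and strong end of the cloud (median 748 bp), and the 203 found in neither fill the weak end (median 232 bp).

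The left arm had the better supported peaks. There, 85 of 247 combined-list peaks were found in both replicates (34.4%, 28.8 to 40.5%), against 64 of 390 on the rest of IV (16.4%, 13.1 to 20.4%). The difference was 18.0 percentage points (95% Newcombe interval 11.1 to 25). The left arm also had the smaller q-values: it held 91 of the 160 best peaks and 52 of the 159 weakest. Within the best 160 alone, the shares found in both were 85.7% (77.1 to 91.5%) on the left arm and 76.8% (65.6 to 85.2%) elsewhere. Within the next 159 they were 11.5% (5.67 to 21.8%) on the left arm and 10.2% (5.64 to 17.8%) elsewhere, and in both rank classes the intervals overlapped. The median width was 314 bp on the left arm, against 353 bp in the centre and 350 bp on the right arm.

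Between the replicates, most replicate 2 peaks of IV had a counterpart. Of the 171, 165 were found in replicate 1 (96.5%, 92.6 to 98.4%), beside 94.7% over the whole series. Conversely, replicate 2 listed 155 of the 476 replicate 1 peaks (32.6%, 28.5 to 36.9%), beside 29.6% over the whole series. That share was likewise capped by the 171 peaks of replicate 2, of which 0 spanned 2 or more replicate 1 peaks. The 76 best replicate 1 peaks of IV were all found in replicate 2. The share in replicate 1 was 91.6% (85.2 to 95.4%) for ranks 1 to 119 on IV, 31.1% (23.5 to 39.9%) for ranks 120 to 238, 5.88% (2.88 to 11.6%) for ranks 239 to 357 and 1.68% (0.462 to 5.92%) for the rest. With depth unknown, a replicate 1 peak without a partner was not detected in replicate 2, which does not make it unbound there.

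Matched peaks lay in nearly the same place and kept nearly the same order. For 145 peaks of IV the match was unique both ways, and over these pairs −log10 q gave Spearman's rho = 0.855 and Pearson's r = 0.988. The points are peaks of the same libraries and not independent samples, so these values only describe the lists. Centres lay a median of 44 bp apart (quartiles 22 and 95.5 bp). Matching requires overlap, so close centres are in part built in. Peaks without a partner are left out, among them those ranked 1 to 3 on IV in replicate 2. The replicate 2 peak was the narrower in 124 of the 145 pairs, with a median width ratio of replicate 2 to replicate 1 of 0.785, and in 88 pairs it lay wholly inside its partner. Evidence was weaker in replicate 2, where −log10 q was a median of 0.421 times that of the partner (quartiles 0.352 and 0.510).

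Only 1 of the 145 pairs had the smaller q in replicate 2. It was the region at 13549246 to 13549637, with q = 6.10e-07 in replicate 2 and 3.62e-06 in replicate 1. At the other extreme, a replicate 1 peak at 7908787 to 7910660 had q = 2.73e-29, while its only partner in replicate 2 was 238 bp wide, at 7908908 to 7909145, with q = 1.56e-04. Its centre lay 697 bp from that of the replicate 1 peak. Both pairs are named for their ratios and were chosen after these were seen.

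**Figure D3:**
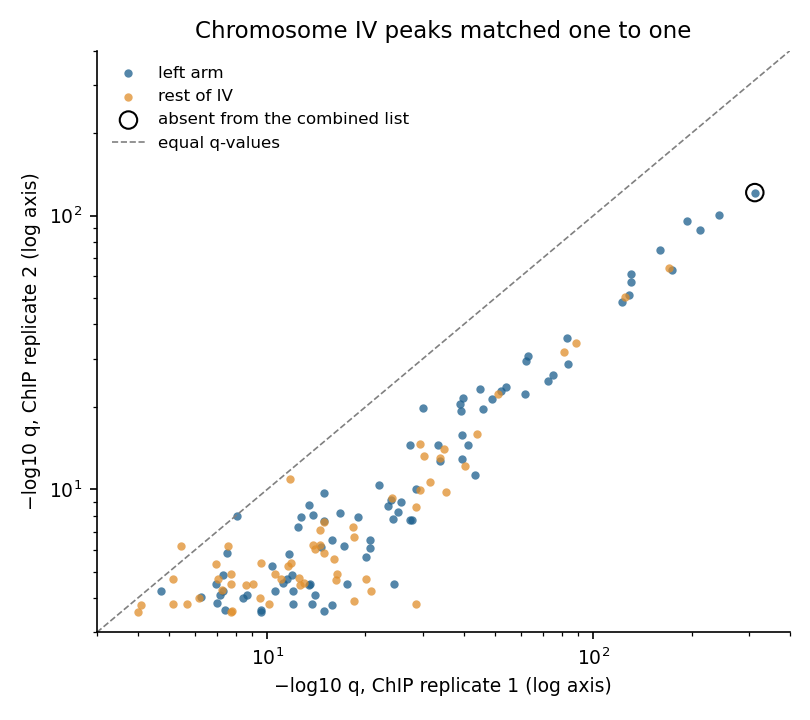
−log10 q in ChIP replicate 1 (x axis, log scale) against ChIP replicate 2 (y axis, log scale) for the 145 uniquely matched chromosome IV peaks, coloured by left arm and rest of IV. All points but 1 lie below the dashed line of equal q-values, and the circled peak, at −log10 q of 313 and 121, is absent from the combined list.

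The very strongest replicate regions of IV were missing from the combined list. Of the 171 replicate 2 peaks, 167 were found there (97.7%, 94.1 to 99.1%), beside 95.3% over the whole series, and the 4 that were not are the 4 with the smallest q-values of replicate 2 on this chromosome. They lie at 2526635 to 2530728 (4094 bp, q = 1.50e-164), 1407328 to 1409794 (2467 bp, q = 5.34e-140), 2548338 to 2552734 (4397 bp, q = 3.96e-133) and 999138 to 1001401 (2264 bp, q = 4.87e-122). Replicate 2 had no wider peak on IV than the third of them. All 4 are on the left arm. Their −log10 q in replicate 2 ran from 121.3 to 163.8. For uniquely matched peaks of IV, −log10 q in replicate 2 was a median of 0.301 times that in the combined list. The largest −log10 q of the whole combined list was 322.5. Absence of these 4 regions from the combined list therefore does not show absence of signal there, and its cause was not tested.

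Replicate 1 listed only the last of these regions, where it had its own strongest peak of IV, at 999031 to 1001511 (2481 bp, q = 2.81e-313, 3rd in its whole list). At the other 3 positions replicate 1 listed no peak either, although it listed every one of the 107 replicate 2 peaks that hold places 4 to 110 on IV. In replicate 1, no −log10 q of the whole series exceeded 320. For uniquely matched peaks of IV, −log10 q in replicate 2 was a median of 0.421 times that in replicate 1. Absence from the replicate 1 list at these 3 positions therefore does not show absence of signal there, and its cause was not tested. Of the 476 replicate 1 peaks, 439 were found in the combined list (92.2%, 89.5 to 94.3%), beside 92.0% over the whole series. The 36 missing ones other than the strongest were weak, with a median width of 200 bp and −log10 q of at most 6.72.

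Peaks around these regions were listed for 3 of the 4. The missing region near 1 Mb lies between combined-list peaks that end 2141 bp to the left and start 553 bp to the right of the replicate 1 peak. Within 15 kb of its centre the combined list had 12 peaks, replicate 1 had 8 and replicate 2 had 5, the strong one included for the replicates. The strongest neighbour, at 1004436 to 1005859 in the combined list, had q = 1.64e-63 in replicate 1, 2.58e-31 in replicate 2 and 5.17e-90 in the combined list. Around the region at 1407328, each list had weaker neighbours, the best at 1399836 to 1400573 (q = 9.98e-28 in the combined list). Around the region at 2526635, neither replicate 1 nor the combined list had any peak within 15 kb. The region at 2548338 ended 2128 bp before a combined-list peak at 2554863 to 2556592 (q = 2.17e-54), which overlapped peaks of replicate 1 (best q = 5.76e-26) and replicate 2 (best q = 5.16e-09).

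**Figure D4:**
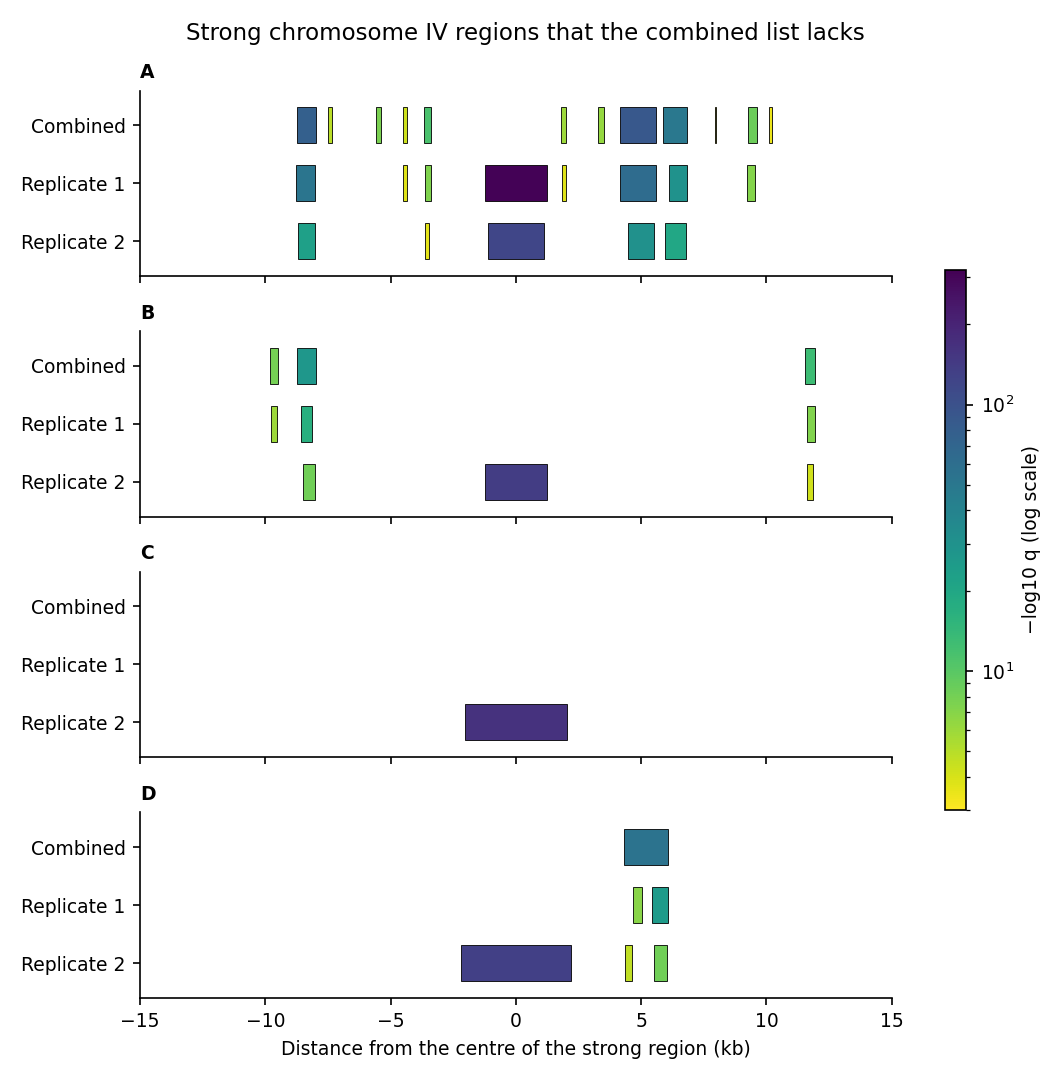
Peaks within 15 kb of the centres of the 4 strong regions of chromosome IV that the combined list lacks, in the order of their position (A to D). Bars show peak extents, as distance from the centre in kb, and their colour gives −log10 q on a log scale; the central bar is present in both replicates in A and in replicate 2 only in B, C and D.

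Peaks on IV often had close neighbours. In the combined list, 338 of 637 (53.1%, 49.2 to 56.9%) had another peak within 5 kb, against 1670 of 3129 on the other chromosomes (53.4%, 51.6 to 55.1%). In replicate 2 the shares were 45.0% (37.8 to 52.5%) on IV and 38.5% (35.1 to 42.1%) elsewhere, with overlapping intervals. The median gap between neighbours on IV was 11330.5 bp (quartiles 2785.75 and 34509.5 bp) and the smallest 203 bp. Chained by gaps under 5 kb, the 637 peaks formed 422 regions, of which 299 were single peaks and 12 held 5 or more.

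Of the 12 groups, 8 were on the left arm, 1 in the centre and 3 on the right arm. The centre group starts at 4019741, just past the rounded bound of 4 Mb. The longest, at 2593288 to 2617246 (24.0 kb), held 9 peaks. All 9 were found in replicate 1 and 4 of them in both replicates, but the best had only q = 6.12e-31. Groups of 8 peaks lay at 1057431 to 1070790 (best q = 4.94e-34) and at 2388498 to 2401305 (best q = 2.49e-172). Only the group at 13383478 to 13395522 held 0 peaks found in both replicates, and its best q was 9.29e-09. A dense stretch from 972344 to 1010507 (38.2 kb, chosen after the positions were seen) held 15 combined-list peaks, 11 of replicate 1 and 8 of replicate 2. It contains 3 of the 12 named regions and the missing region near 1 Mb.

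Set against the other chromosomes together, the intervals for the density and support of IV included no difference, and the positions of its peaks are given last. Its density was 36.7 peaks per Mb, against 37.9 on the other chromosomes together, a ratio of 0.970 (0.889 to 1.06). Replicate 1 gave 0.985 (0.890 to 1.09), and for replicate 2 it came to 1.11 (0.933 to 1.31). Singly, the chromosomes differed widely: IV, with 36.7 per Mb in the combined list (34.0 to 39.7), lay below III (68.5, 64.2 to 73.0) and I (49.2, 45.7 to 52.9), and above V (29.0, 26.7 to 31.4), II (28.2, 25.6 to 31.0) and X (23.3, 21.1 to 25.6). The interval of IV overlapped none of these. The share found in both replicates, 23.4% on IV and 20.7% elsewhere, differed by 2.65 points (Newcombe interval −0.795 to 6.36, which includes 0). The share of replicate 2 peaks found in replicate 1 differed by 2.21 points (−1.99 to 4.90). Per 100 protein-coding genes of the gene table, IV had 19.4 combined-list peaks, and the other 5 chromosomes had 12.1 to 35.7.

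Peak positions on IV were shifted toward the left end. The left outer 25% of the span held 41.0% of the combined-list peaks on IV and 29.1% on the other chromosomes, a difference of 11.9 points (7.77 to 16). The right outer 25% held 18.4% on IV and 30.0% elsewhere, a difference of −11.6 points (−14.9 to −8.08). In replicate 1 the left difference was 15.9 points (11.1 to 20.8) and the right −12.1 (−15.9 to −7.98). In replicate 2 the left was 22.7 points (14.4 to 30.4) and the right −20.5 (−25.9 to −13.9). With peaks under 5 kb apart joined into 1, an alternative for grouped peaks, they were 8.14 (3.31 to 13.2) and −10.1 (−14.0 to −5.75). The left-end share was also high on chromosome I, at 37.1% (33.7 to 40.6%), whose interval overlaps that of IV (37.2 to 44.8%). In replicate 2 it was 62.6% on IV (55.1 to 69.5%) and 54.0% on I (46.9 to 60.9%), again with overlapping intervals. The replicate 2 shares were 46.4% on III, 32.0% on II, 27.4% on X and 18.3% on V. Chromosome V went the other way, with 55.7% of its replicate 2 peaks at the right end. The right end of IV had the lowest share of right-end peaks among the 6 chromosomes, 18.4% (15.6 to 21.6%), and the next lowest was X with 27.1% (23.0 to 31.6%). The directions were chosen with these positions known, so the intervals describe the lists and test nothing.

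**Figure D5:**
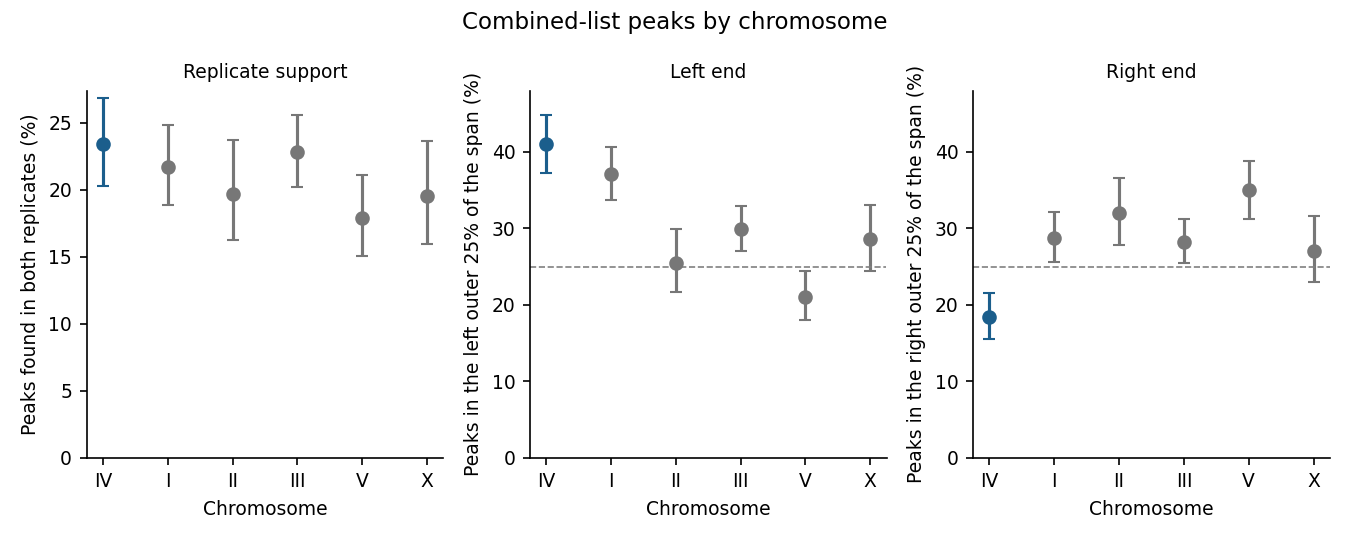
Share of combined-list peaks found in both replicates (left), in the left outer 25% of the span (middle) and in the right outer 25% (right), for IV first and then the other chromosomes; points are shares in % and bars are 95% Wilson intervals over peaks. The dashed line marks 25%, and IV lies at 41.0% on the left and 18.4% on the right.

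Chromosome IV contributed 18 of the 100 best combined-list peaks, 18 of the 100 best of replicate 1 and 17 of the 100 best of replicate 2. Its share of all peaks was close to this, with 637 of 3766, 476 of 2778 and 171 of 906.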

How the data were processed

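The authors deposited peak lists of 2 ChIP samples and 1 combined list, with coordinates on WormBase build WS180 and peaks called by PeakSeq, per the file headers. The only value per peak is the deposited q-value; the sources used here do not give the aligner, the filters, the q-value limit or how the combined list was made. No input list was used. Per the labels' protocols, worms were fixed with 2% formaldehyde and chromatin was collected with a goat antibody against EGFP.

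Chromosome IV rows were taken from each list, and −log10 q was computed from the deposited text. Peaks were called found in another list at 1 bp of overlap. Shares have 95% Wilson, differences Newcombe, densities exact Poisson and density ratios exact conditional intervals. No test was run between peaks. Arm bounds (4 and 13 Mb) and 21U-RNA domains are rounded from general knowledge. Regions named are the 12 best combined-list peaks found in both replicates, the strong ones the combined list lacks, the 3 widest, those in replicate 2 only, the best per bin of 1 Mb and groups of 5 or more; others are marked. Members, bounds and lists were chosen with earlier results of these data known. The gene table is of assembly WBcel235, another build, and gave only chromosomes and gene numbers, so no gene or sequence was assigned to a peak. The overlap and joining code was tested on simulated data. Python 3.11.15, NumPy 2.4.6, SciPy 1.17.1, pandas 2.3.3 and Matplotlib 3.10.9 were used.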

Additional observations from a re-analysis of the deposited data

How the results depend on the processing

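Of 48 alternatives to 12 results, 18 stayed within the interval of the reported value and 30 moved beyond it. The width ratio of 3.22 has no interval, and a fixed band from 2.15 to 4.84 was used in its place. Stricter sharing rules lowered support by construction: reciprocal overlap of 50% gave 73.7% of replicate 2 peaks in replicate 1, 26.5% of replicate 1 in replicate 2 and 17.1% of combined peaks in both, and centres within 200 bp gave 78.4, 28.2 and 19.3%. Reciprocal overlap gave a rho of 0.912. With replicate 1 cut to the 171 best, 76.0% were in replicate 2. A replicate's own list stood in for leaving out the other: density on IV was 9.87 to 27.5 per Mb, the left-arm share 43.7 to 57.9%, centre 29.8 to 38%, right arm 12.3 to 18.3%, 21U-RNA domains 5 to 18 per Mb, and neighbours within 5 kb 45.0 to 51.5%. The better part of the combined list gave 18.2 per Mb, 47.3% left arm, 37.1% centre, 10.7 per Mb in the domains, 43.2% with neighbours and a width ratio of 1.75. Peaks under 5 kb apart joined gave 24.3 per Mb, 33.2% left arm, 48.8% centre and 18.8 per Mb in the domains. A shorter list, part of a list or joined peaks lower the peaks per Mb by construction. Within 2 kb 35.8% had a neighbour, and within 10 kb 68.3%. Other causes of these shifts were not tested. Leaving out the strong regions that the combined list lacks, chosen after seeing the data, gave 98.2% and a rho of 0.852. No paired analysis was possible because no input list was used here and no fit between groups was made. Unknown depth limits every statement on peaks listed once.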

Other observations

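The chromosome IV list held a few very narrow peaks. A width under 50 bp was listed for 11 of 637 (1.73%, against 2.27% on the other chromosomes), 2 of them found in replicate 1 and 0 in replicate 2. The narrowest, at 1751422 to 1751423, was 2 bp wide with q = 9.72e-06, while replicate 1 listed 1751393 to 1751487 there with q = 2.46e-05. The next, at 6316322 to 6316326, was 5 bp wide and was found in neither replicate. Many q-values were shared between peaks: the 637 peaks had 516 distinct values, and 205 of them shared a value with another peak on IV. In replicate 2, 45 of 171 did.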
